A study of Mus musculus with 10 samples.

Results

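The 10 mouse genes described here, all of meiotic recombination, were followed in testes of mice labelled as conditional knockouts of Lsm7, whose protein sits in an LSm ring, a complex of U6 small nuclear RNA and of mRNA turnover. They are Spo11, Mei4, Ankrd31, Dmc1, Meiob, Spata22, Msh4, Hfm1, Shoc1 and Tex11, and they were taken by name from the deposited count table, where they are 10 of 25239 genes. They were picked by role in break formation, strand exchange and crossover formation, in a setting where earlier results of these data were already known, so the choice is not independent of the data. RNA-seq was run on testes of C57BL/6 mice at postnatal day 7 (P7) and postnatal day 4 (P4), in mice with the genotype label Lsm7-flfl-stra8 (cKO) and in wild-type mice (WT). There were 3 P7 cKO, 2 P7 WT, 3 P4 cKO and 2 P4 WT libraries. The label names Lsm7 and Stra8 and does not spell out how or in which cells the deletion was driven. The cell type label reads germ cell, but the protocol extracts RNA from testis and gives no sorting step.

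Meiotic recombination begins when SPO11 cuts both strands of DNA along the chromosome axes, at sites where accessory proteins such as MEI4 and ANKRD31 gather. The ends are resected, coated by single-strand binding proteins, and paired with the homologous chromosome with the help of the recombinase DMC1. A set of proteins first described in yeast and known as the ZMM group, to which MSH4, HFM1, SHOC1 and TEX11 belong, then protects some of the joined intermediates so that they become crossovers. In the mouse these proteins act in spermatocytes, the cells that enter meiosis, whereas testes of the ages sampled here hold mainly spermatogonia among their germ cells. Transcripts of several meiotic genes are nonetheless found in spermatogonia.

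The genes lie on 10 different chromosomes (GRCm38, coordinates from the deposited table). The break formation genes are Spo11 (chr2:172979842-172993576, plus strand), Mei4 (chr9:81863670-82206007, plus strand) and Ankrd31 (chr13:96748293-96909794, plus strand). The strand exchange genes are Dmc1 (chr15:79561498-79605109, minus strand), Meiob (chr17:24804382-24839787, plus strand) and Spata22 (chr11:73329741-73346044, plus strand). The crossover genes are Msh4 (chr3:153857141-153906138, minus strand), Hfm1 (chr5:106840197-106925890, minus strand), Shoc1 (chr4:59041984-59138983, minus strand) and Tex11 (chrX:100838648-101059639, minus strand). No other gene of the table overlapped any of these spans. GC content, taken from the longest GENCODE transcript of each gene, was 39.0% to 45.7% in the 10 genes (median 40.8%). All 10 were below the median of 49.3% over all genes with a read (interquartile range 44.6% to 54.2%), and Spo11 and Msh4 were within that range. They had a median of 18 merged exon blocks, against 7 over all genes, and a median exonic length of 3652 bases, against 2534.

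Promoter sequences, 300 bases around the annotated start, were matched in RefSeq (GRCm38.p6) for 6 of the 10 genes, which are Mei4, Ankrd31, Spata22, Msh4, Dmc1 and Hfm1. Those of Spata22, Ankrd31 and Msh4 are shown because these genes fell in the P4 cKO testes. They are given 5′ to 3′ on the gene's strand, and capitals mark the match to the E2F motif that was searched. The regions are chr11:73329491-73329790 (plus strand) for Spata22, chr13:96748043-96748342 (plus strand) for Ankrd31 and chr3:153904842-153905141 (minus strand) for Msh4. The Msh4 region lies wholly inside the gene span given by the deposited table, downstream of the 5′ end of that span.
Spata22: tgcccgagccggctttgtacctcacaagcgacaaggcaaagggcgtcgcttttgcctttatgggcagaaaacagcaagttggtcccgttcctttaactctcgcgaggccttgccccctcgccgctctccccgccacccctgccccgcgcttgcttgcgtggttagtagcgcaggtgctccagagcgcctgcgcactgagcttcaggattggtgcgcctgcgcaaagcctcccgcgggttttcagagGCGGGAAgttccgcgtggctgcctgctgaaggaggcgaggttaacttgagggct
Ankrd31: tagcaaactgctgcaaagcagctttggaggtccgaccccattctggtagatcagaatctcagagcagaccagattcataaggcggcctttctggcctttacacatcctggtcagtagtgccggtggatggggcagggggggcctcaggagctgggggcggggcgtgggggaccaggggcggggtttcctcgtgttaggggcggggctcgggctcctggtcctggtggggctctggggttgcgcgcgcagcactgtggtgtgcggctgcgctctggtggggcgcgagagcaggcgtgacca
Msh4: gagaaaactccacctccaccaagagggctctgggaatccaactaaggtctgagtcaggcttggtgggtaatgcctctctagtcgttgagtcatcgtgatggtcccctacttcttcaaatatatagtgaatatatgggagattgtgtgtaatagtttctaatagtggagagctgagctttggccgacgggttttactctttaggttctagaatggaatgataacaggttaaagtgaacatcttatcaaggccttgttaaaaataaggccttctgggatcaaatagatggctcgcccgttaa
Spata22 was the only one of the 6 promoters with a match to the E2F motif GCGGGAA or its reverse complement TTCCCGC, which 4.6% of 32817 RefSeq promoters of the same length hold. The E-box CACGTG, held by 7.1% of all promoters, and the ETS motif CCGGAAG or CTTCCGG, held by 8.9%, had no match in any of the 6. The number of CpG dinucleotides was 25 for Spata22, 17 for Ankrd31 and 6 for Msh4, against a median of 7 over all promoters. Hfm1 had 41, and 97.0% of all promoters had as many or fewer.

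The libraries held 28.8 to 41.8 M counted reads. The pair of P7 WT libraries differed by little more than sampling noise (over genes, chi-square divided by its degrees of freedom was 1.98, and 22.24 to 115.81 in all other pairs within a group), and they were added together and counted as 1 sample. P7 cKO replicate 1 stood apart from the other P7 cKO libraries, with values of 110.5 and 115.81. Separate animals are not stated in the labels, so p-values cover only the spread of these samples, and that may be technical. Lsm7 itself was read at 20.3 to 45.2 CPM (reads per 1 M counted, with TMM scaling) in P7 cKO samples, against 33.3 CPM in the P7 WT sample, and at 43.6 to 50.5 CPM in P4 cKO samples, against 25.7 to 36.2 CPM in P4 WT samples. Neither difference passed the test (log2 fold change -0.13, adjusted p = 0.835 at P7, and 0.58, adjusted p = 0.215 at P4), and the labels do not state which part of the gene was deleted. The name cKO therefore stands for the label throughout. In whole testis RNA, fewer cells of a type and less RNA per cell cannot be told apart.

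In P7 cKO testes, Spata22, Hfm1 and Shoc1 fell, to 21.7%, 41.9% and 41.6% of the P7 WT level. In P4 cKO testes, Spata22, Shoc1, Msh4, Spo11 and Ankrd31 fell, to 19.1%, 19.6%, 25.8%, 26.1% and 40.5% of the P4 WT level. None of the 10 genes rose in either comparison, while 7.26% of all tested genes did at P7 and 4.84% at P4. The edgeR quasi-likelihood test, with adjusted p under 0.05 over 18419 tested genes, thus called 3 of 10 lower at P7, where 9.72% of all tested genes were lower, and 5 of 10 lower at P4, where 4.13% were. The P7 calls rest on 1 WT sample whose spread was taken from the other groups, and with the P7 groups fitted alone 0 of the 10 and 0 of all genes were called. All 10 genes were tested. Every cKO sample lay below every WT sample for 8 of the 10 genes at P7, as for 34.6% of all tested genes, and for 8 of the 10 at P4, as for 25.6%. The median log2 fold change of the 10 genes was -0.77 at P7, against 0.09 over all tested genes, and -1.62 at P4, against 0.00.

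**Figure D1:**
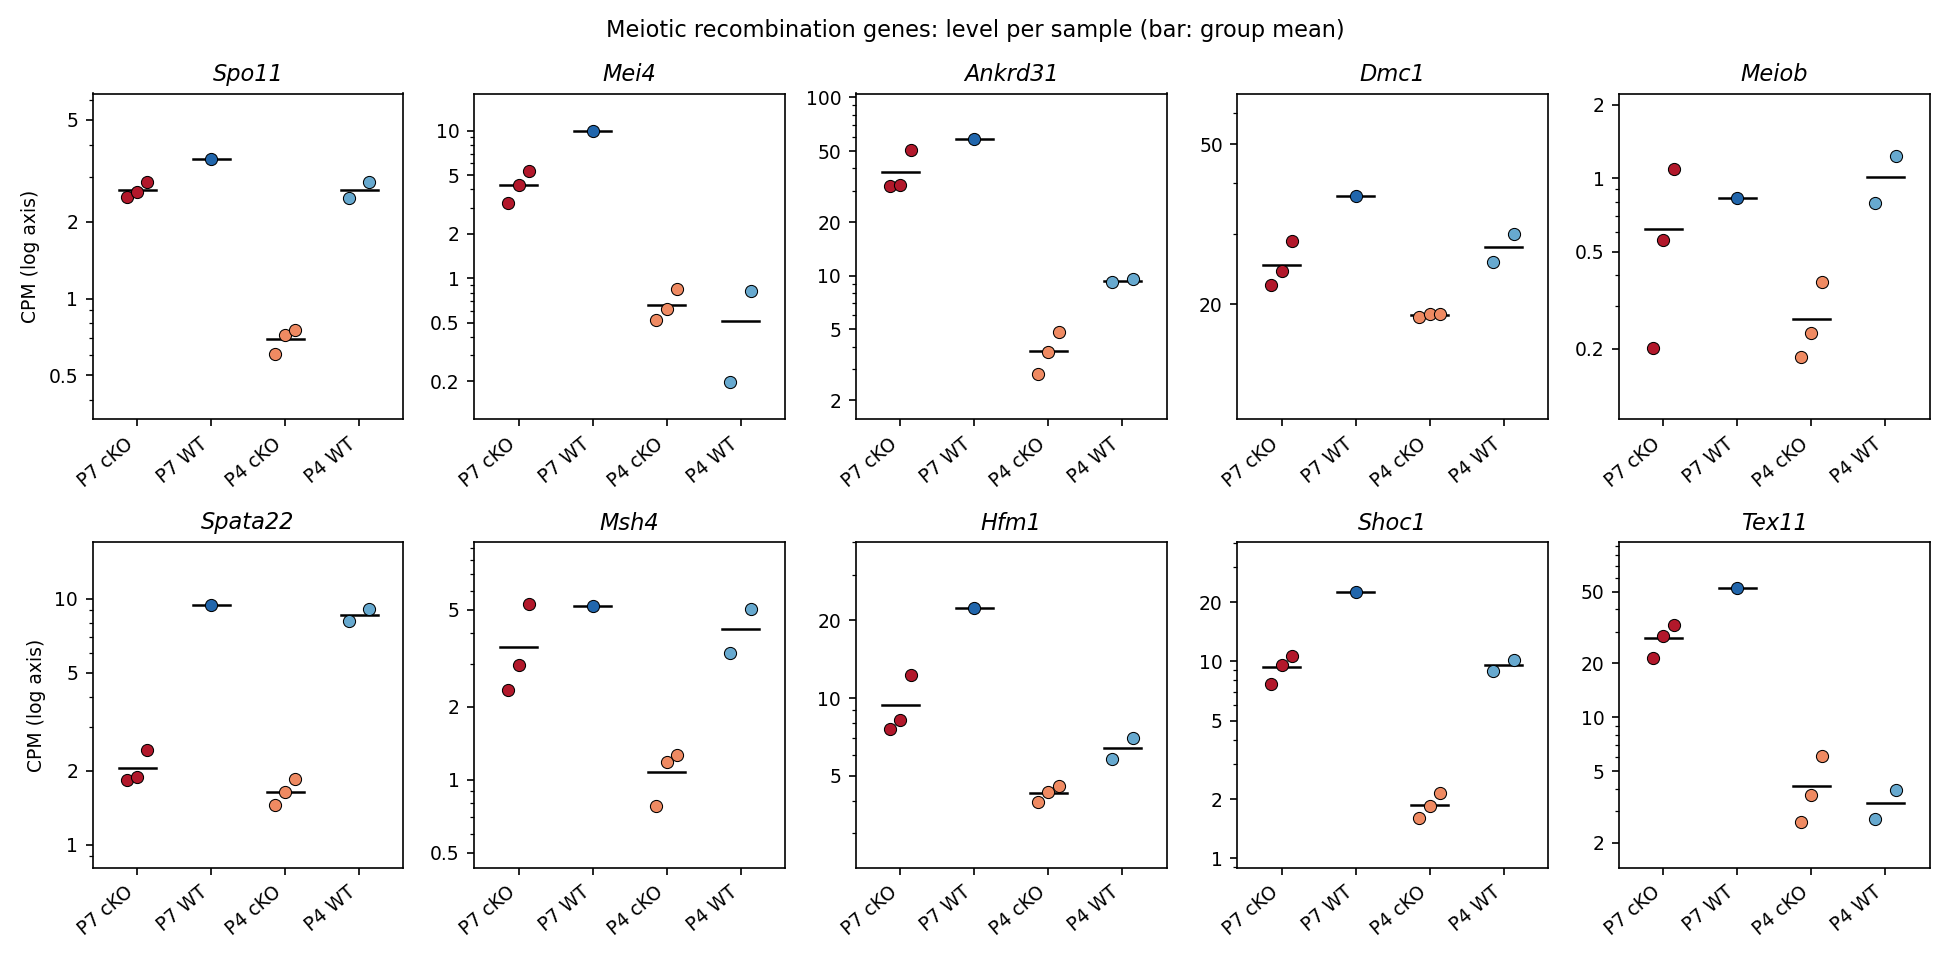
Level of each gene in CPM on a log axis for P7 cKO, P7 WT, P4 cKO and P4 WT, with 1 point per sample, points of a group spread sideways in order of value, and bars at group means. The P7 WT libraries are 1 summed sample. Spata22 lay at 1.83 to 2.43 CPM in P7 cKO and 1.45 to 1.85 CPM in P4 cKO samples, below 9.45 CPM in P7 WT and 8.10 to 9.07 CPM in P4 WT samples.

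Among the break formation genes, Spo11, whose protein is the topoisomerase-like subunit that makes the breaks, had 2.86, 2.49 and 2.60 CPM in P7 cKO samples, against 3.52 CPM in the P7 WT sample. It had 0.723, 0.753 and 0.606 CPM in P4 cKO samples, against 2.85 and 2.48 CPM in P4 WT samples. The P4 groups were well apart, and Spo11 fell there (log2 fold change -1.94, SE 0.30, adjusted p = 0.0122). At P7 the difference was -0.41 (95% interval -1.18 to 0.36, adjusted p = 0.442). Ankrd31, whose protein is needed for breaks in the region shared by the X and Y chromosomes, had 50.9, 32.0 and 32.1 CPM in P7 cKO samples, against 58.4 CPM in the P7 WT sample. At P4 it had 4.86, 3.73 and 2.82 CPM in cKO samples, against 9.56 and 9.20 CPM in WT samples. P7 cKO replicate 1 was the highest of its group and close to P7 WT, while at P4 no cKO sample came near WT. Ankrd31 fell by 1.30 at P4 (SE 0.27, adjusted p = 0.0217), and at P7 the difference was -0.61 (95% interval -1.30 to 0.09, adjusted p = 0.203). Mei4, whose protein assembles with REC114 on the axes, had 5.35, 3.22 and 4.30 CPM in P7 cKO samples, against 9.94 CPM in the P7 WT sample. The P7 difference did not pass the test although the groups were apart (log2 fold change -1.21, SE 0.49, adjusted p = 0.110). At P4 it had 0.521, 0.616 and 0.843 CPM in cKO samples, against 0.199 and 0.825 CPM in WT samples. The P4 WT samples lay on both sides of 2 of the 3 cKO samples and rest on 6 and 28 reads (log2 fold change 0.35, 95% interval -0.77 to 1.47, adjusted p = 0.677).

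Among the strand exchange genes, Spata22 had the lowest fold change of the 10 genes at P7, and at P4 it and Shoc1 differed by less than their SE. Its protein forms a complex with MEIOB on single-stranded DNA. It had 1.88, 1.83 and 2.43 CPM in P7 cKO samples, against 9.45 CPM in the P7 WT sample. It had 1.45, 1.85 and 1.63 CPM in P4 cKO samples, against 9.07 and 8.10 CPM in P4 WT samples. Over both stages, the cKO samples thus lay at 1.45 to 2.43 CPM and the WT samples at 8.10 to 9.45 CPM. The log2 fold change was -2.20 at P7 (SE 0.30, adjusted p = 0.00642) and -2.39 at P4 (SE 0.26, adjusted p = 0.00318). Meiob, its partner, was read at 36, 8 and 23 reads in the P7 cKO libraries, against 28 and 20 reads in the P7 WT libraries, and at 8, 11 and 7 reads in the P4 cKO libraries, against 24 and 42 reads in the P4 WT libraries. The P7 groups overlapped and the P4 groups did not. Neither difference passed the test, with a log2 fold change of -0.44 (95% interval -2.14 to 1.25, adjusted p = 0.723) at P7 and -1.95 (95% interval -3.42 to -0.49, adjusted p = 0.0853) at P4. Dmc1, the meiosis-specific recombinase, had 28.7, 22.4 and 24.2 CPM in P7 cKO samples, against 37.2 CPM in the P7 WT sample. At P4 it had 19.0, 19.0 and 18.6 CPM in cKO samples, against 30.0 and 25.5 CPM in WT samples. No cKO sample reached WT at either stage, but the differences missed the threshold, at -0.57 (SE 0.22, adjusted p = 0.0992) at P7 and -0.56 (SE 0.18, adjusted p = 0.0731) at P4.

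Among the crossover genes, Shoc1, whose protein is related to the nuclease XPF and to yeast Zip2, had 9.60, 7.69 and 10.7 CPM in P7 cKO samples, against 22.4 CPM in the P7 WT sample. It had 2.14, 1.61 and 1.84 CPM in P4 cKO samples, against 10.2 and 8.96 CPM in P4 WT samples. The groups were far apart at both stages, and Shoc1 fell at both, with a log2 fold change of -1.27 (SE 0.27, adjusted p = 0.0142) at P7 and -2.35 (SE 0.24, adjusted p = 0.00275) at P4. Msh4, which with MSH5 forms a clamp on joined DNA, had 5.29, 2.96 and 2.33 CPM in P7 cKO samples, against 5.17 CPM in the P7 WT sample. At P4 it had 0.781, 1.27 and 1.19 CPM in cKO samples, against 5.03 and 3.33 CPM in WT samples. P7 cKO replicate 1 was above P7 WT, whereas at P4 the groups were apart. Msh4 fell at P4 (log2 fold change -1.95, SE 0.40, adjusted p = 0.0209), and at P7 the difference was -0.56 (95% interval -1.57 to 0.46, adjusted p = 0.430). Hfm1, a helicase related to yeast Mer3, had 12.3, 8.22 and 7.56 CPM in P7 cKO samples, against 22.3 CPM in the P7 WT sample, and fell there (log2 fold change -1.25, SE 0.30, adjusted p = 0.0194). At P4 it had 3.96, 4.31 and 4.58 CPM in cKO samples, against 5.79 and 6.99 CPM in WT samples. The P4 groups were apart but close, and the difference was -0.58 (SE 0.26, adjusted p = 0.164). Tex11, the X-linked relative of yeast Zip4, had 21.5, 32.8 and 28.3 CPM in P7 cKO samples, against 52.8 CPM in the P7 WT sample. At P4 it had 3.70, 2.60 and 6.06 CPM in cKO samples, against 2.71 and 3.92 CPM in WT samples. The P7 groups were apart and the P4 groups overlapped, and neither difference passed the test (log2 fold change -0.94, adjusted p = 0.108 at P7, and 0.32, adjusted p = 0.559 at P4).

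**Figure D2:**
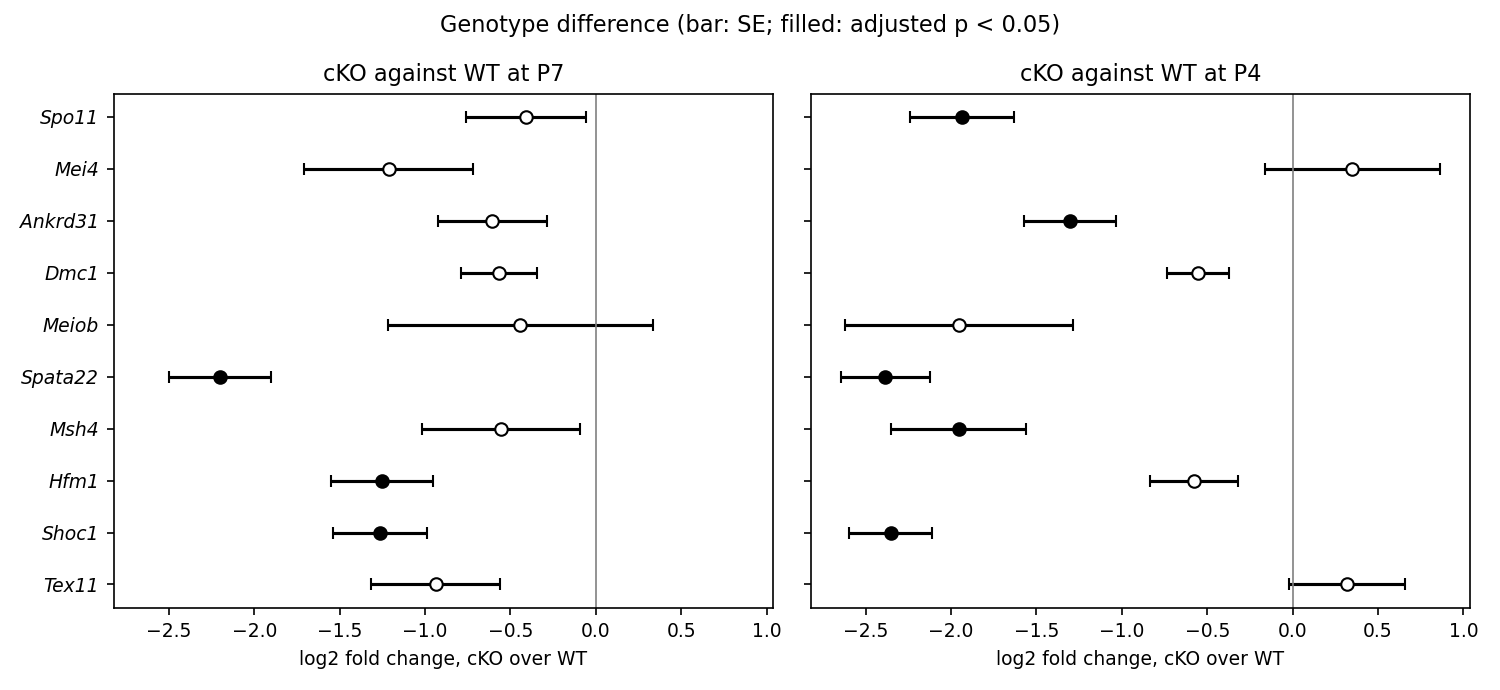
Log2 fold change of cKO over WT for each gene at P7 (left) and P4 (right) from the edgeR fit over 9 samples, with bars for the SE and filled points for adjusted p under 0.05. All 10 genes lay below 0 at P7, and 8 of 10 did at P4, where Mei4 (0.35) and Tex11 (0.32) lay above it.

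Single libraries decided several of these calls. Without P4 WT replicate 1, where the lone P4 WT sample left was taken to vary like the other groups, none of the 10 genes passed at P4: Spata22 had a log2 fold change of -2.30 (adjusted p = 0.0531), Shoc1 -2.26 (adjusted p = 0.0512), and Spo11, Ankrd31 and Msh4 had adjusted p of 0.186, 0.210 and 0.224. Only 2 of all tested genes passed there. Without P4 cKO replicate 2 or 3, 2 of the 10 passed at P4, among 13 and 11 of all genes. Without P7 cKO replicate 1, 6 of the 10 passed at P7, among 4921 of all genes, and 7 at P4, among 4157. Without P7 cKO replicate 2, Spata22 alone of the 10 passed at P7, among 961 of all genes, with adjusted p of 0.0653 for Hfm1 and 0.0516 for Shoc1. The sizes moved less: over the left-out libraries, Spata22 ran from -2.49 to -2.30 and Shoc1 from -2.48 to -2.26 at P4, and Spata22 ran from -2.34 to -2.12 at P7.

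Between the stages, P7 was set against P4 within each genotype. In cKO, 7 of the 10 genes rose at P7, where 14.5% of all tested genes did, and in WT 5 of 10 rose, where 11.8% did. None fell, while 14.7% of all tested genes did in cKO and 9.97% in WT. The WT stage calls rest on the same 1 P7 WT sample, whose spread was taken from the other groups. Every P7 sample lay above every P4 sample for 8 of the 10 genes in cKO, as for 22.9% of all tested genes, and for 9 of 10 in WT, as for 42.6%. The median log2 fold change of the 10 genes was 1.82 in cKO, against 0.00 over all tested genes, and 0.83 in WT, against -0.03.

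Mei4 and Tex11 rose most in WT, 19.0-fold (log2 fold change 4.25, SE 0.59, adjusted p = 0.00136) and 15.9-fold (3.99, SE 0.43, adjusted p = 4.31e-04). The WT value of Mei4 rests on the P4 WT libraries with 6 and 28 reads, and leaving out either gave 3.58 or 5.62 on the log2 scale, against 3.74 or 4.28 for Tex11. In cKO they rose 6.44-fold (2.69, SE 0.42, adjusted p = 8.91e-04) and 6.65-fold (2.73, SE 0.31, adjusted p = 1.24e-04). Ankrd31 rose 10.1-fold in cKO (3.33, SE 0.26, adjusted p = 1.70e-05) and 6.22-fold in WT (2.64, SE 0.34, adjusted p = 0.00107). Shoc1 rose 4.99-fold in cKO (adjusted p = 5.19e-05) and 2.35-fold in WT (adjusted p = 0.0155), and Hfm1 rose 2.18-fold in cKO (adjusted p = 0.00442) and 3.49-fold in WT (adjusted p = 0.00433). Spo11 and Msh4 rose in cKO, 3.81-fold (adjusted p = 5.55e-04) and 3.26-fold (adjusted p = 0.00535), and did not pass in WT, at 1.32-fold (adjusted p = 0.462) and 1.24-fold (adjusted p = 0.687). Dmc1 and Spata22 did not pass in either genotype. The log2 fold change of Dmc1 was 0.41 in cKO (95% interval 0.05 to 0.77) and 0.42 in WT (95% interval -0.10 to 0.95), and that of Spata22 was 0.32 in cKO (95% interval -0.21 to 0.85) and 0.14 in WT (95% interval -0.60 to 0.87). Meiob gave 1.22 in cKO (adjusted p = 0.166) and -0.29 in WT (adjusted p = 0.828).

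**Figure D3:**
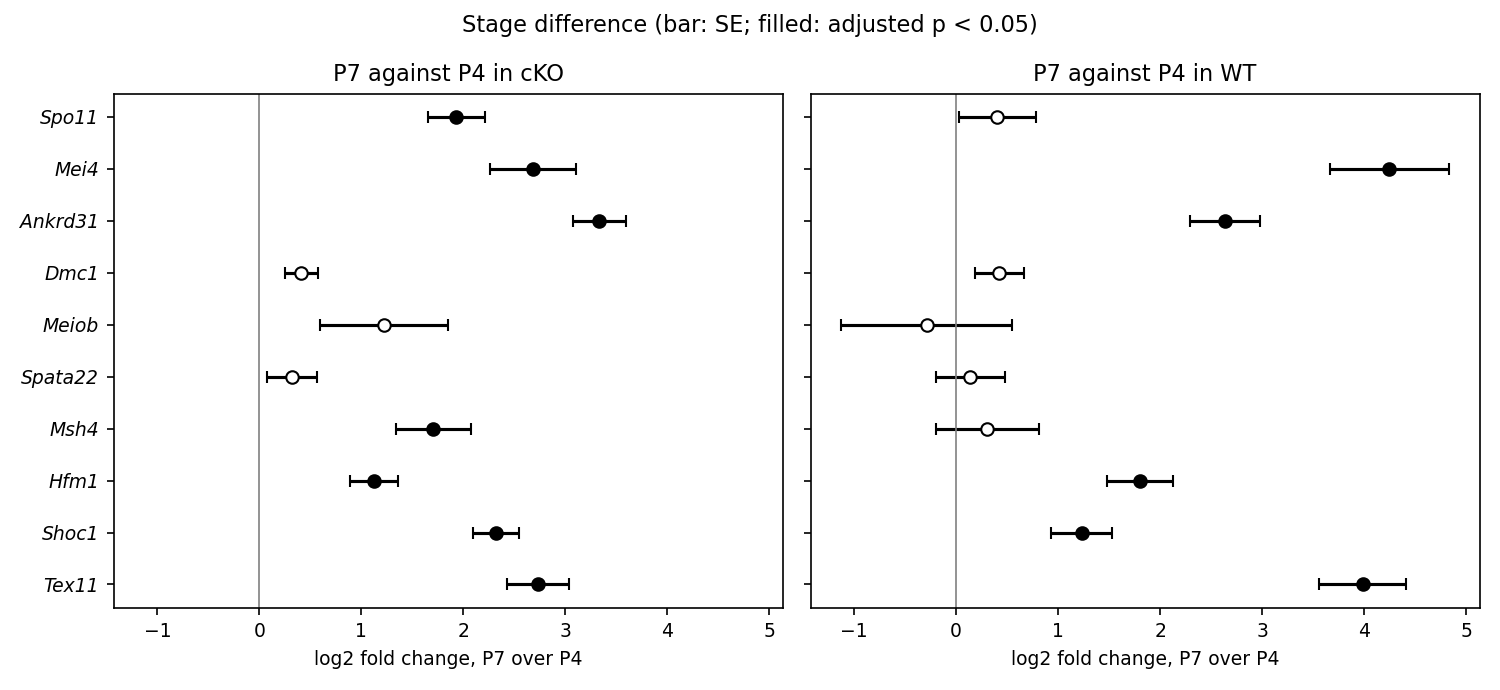
Log2 fold change of P7 over P4 for each gene in cKO (left) and WT (right), with bars for the SE and filled points for adjusted p under 0.05. Ankrd31 (3.33 and 2.64), Mei4 (2.69 and 4.25) and Tex11 (2.73 and 3.99) lay highest, and Spata22 lay near 0 in both genotypes (0.32 and 0.14).

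The stage and genotype comparisons share their samples, so whether the genotype difference itself changed with stage was tested as an interaction. No gene passed, among the 10 or among all 18419 tested (0% called). At an unadjusted p under 0.05, edgeR's test gave 4 of the 10 genes and 4619 of all genes. DESeq2 called 0 of the 10 and 1720 of all genes, and limma-voom 0 and 0. With the P7 WT libraries kept apart, 2 of the 10 passed, Spo11 (1.55, adjusted p = 0.0254) and Shoc1 (1.12, adjusted p = 0.0289), among 3105 of all genes. The replicate block on those libraries gave 3 of 10, with Tex11 added, among 4311. Without P4 WT replicate 2, Mei4 passed (-2.94, adjusted p = 0.0499), among 716. The genotype difference at P7 minus that at P4 was 1.53 for Spo11 (SE 0.49, adjusted p = 0.105), 1.40 for Msh4 (SE 0.64, adjusted p = 0.199), 1.09 for Shoc1 (SE 0.39, adjusted p = 0.124) and -1.26 for Tex11 (SE 0.51, adjusted p = 0.162). For Spata22 it was 0.18 (95% interval -0.73 to 1.09). In the fit over 9 samples, the genotype differences at P7 and P4 are therefore not shown to differ.

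Levels were compared between genes only per exonic length, as CPM per kilobase. Dmc1 was the highest of the 10 in every group, at 11.3 in P7 cKO, 16.8 in P7 WT, 8.50 in P4 cKO and 12.5 in P4 WT. Tex11 came next at P7 (7.66 in cKO and 14.7 in WT), and Spata22 came next at P4 (1.29 in cKO and 6.74 in WT). Meiob was the lowest at P7 (0.363 in cKO and 0.489 in WT) and Mei4 the lowest at P4 (0.105 in cKO and 0.0815 in WT). Over the 9 samples, the level of each gene on the log2 scale was compared with the mean of the other 9 after each was standardised. Pearson's r was 0.96 for Shoc1, 0.93 for Spo11, 0.92 for Dmc1 and Hfm1, 0.89 for Msh4 and 0.88 for Ankrd31. It was lower for Meiob (0.65), Tex11 (0.64), Mei4 (0.63) and Spata22 (0.54). The samples share group and stage, so r mostly describes the pattern over the 4 groups.

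Genes outside the 10 were ranked by how closely their levels followed the mean profile of the 10 over the 9 samples. Genes averaging under 1 on the log2 CPM scale or with clone-type names were left out. The closest were Zfp65 (r = 0.99), Ccdc138, Mettl8, Terb1, Zbed4, Zfp951, Sycp2, Zfp583, Dnajc2 and Zmat1, all with r of at least 0.98. Terb1 links telomeres of meiotic chromosomes to the nuclear envelope, and Sycp2 is an axial element of the synaptonemal complex. Both also belong to the list of synaptonemal complex and meiotic cohesin genes described below. The others, among them the closest, Zfp65, are on none of the meiotic lists used here.

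Of 36 other recombination genes in the table, 2 fell and 2 rose in P7 cKO testes (median log2 fold change -0.08), and 6 fell and 2 rose in P4 cKO testes (median -0.38). Over all tested genes, 9.72% fell and 7.26% rose at P7, and 4.13% fell and 4.84% rose at P4. Hormad1 and Tex15 fell at both stages. Hormad1, an axis protein that recruits the break machinery, averaged 18.3 CPM in P7 cKO, against 49.1 CPM in P7 WT (log2 fold change -1.42, adjusted p = 0.0151), and 9.09 CPM in P4 cKO, against 20.4 CPM in P4 WT (-1.17, adjusted p = 0.0267). Tex15, a germ cell protein needed for recombinase loading, changed by -1.15 at P7 (adjusted p = 0.0236) and -1.05 at P4 (adjusted p = 0.0273). Rnf212, a crossover factor, fell at P4 (-1.82, SE 0.35, adjusted p = 0.0178), as did Ccdc36, also known as Iho1, which works with MEI4 and REC114 in break formation (-0.93, SE 0.21, adjusted p = 0.0254). Rec114, the partner of MEI4, and Rpa2, a general single-strand binding subunit, rose at P7 (1.08, adjusted p = 0.0348, and 0.85, adjusted p = 0.0425). Between the stages, 24 of 36 rose at P7 in cKO and 10 of 36 in WT, against 14.5% and 11.8% of all tested genes. None fell, while 14.7% and 9.97% of all tested genes did.

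Of 16 genes of the synaptonemal complex and meiotic cohesin, 2 fell and 1 rose in P7 cKO testes (median -0.52), and 5 fell in P4 cKO testes (median -0.59). Of all tested genes, 9.72% fell and 7.26% rose at P7, and 4.13% fell and 4.84% rose at P4. The P7 counts of the list were thus close to these shares. Sycp1, the transverse filament of the complex, fell at both stages (-1.65, adjusted p = 0.0102 at P7, and -1.27, adjusted p = 0.0234 at P4). Sycp2 also fell at both (-1.19, adjusted p = 0.0449 at P7, and -1.97, adjusted p = 0.0122 at P4). The meiotic cohesin Rec8 rose at P7 (1.17, adjusted p = 0.0479). Between the stages, 14 of 16 rose at P7 in cKO and 11 of 16 in WT, against 14.5% and 11.8% of all tested genes.

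The levels of germ cell markers differed between groups, not all in the direction of the 10 genes. The summed level of 16 pan germ cell markers was 1503 to 1725 CPM in P7 cKO samples, against 2442 CPM in the P7 WT sample, and 305.7 to 320.5 CPM in P4 cKO samples, against 402.4 to 523.3 CPM in P4 WT samples. Of the 16, 3 fell and 1 rose in P7 cKO testes, and 4 fell in P4 cKO testes, with a median log2 fold change of 0.14 at P7 and -0.36 at P4. At P7 the sum was thus lower in cKO while the median was not. Tex15, also one of the other recombination genes, averaged 245.1 CPM in P7 cKO, against 544.1 CPM in P7 WT. Of all tested genes, 9.72% fell and 7.26% rose at P7, and 4.13% fell and 4.84% rose at P4. All 16 rose at P7 in cKO, and 12 of 16 did in WT, against 14.5% and 11.8% of all tested genes. The 12 undifferentiated spermatogonium markers summed to 668.2 to 788.8 CPM in P7 cKO samples, against 683.3 CPM in the P7 WT sample, and to 487.2 to 558.2 CPM in P4 cKO samples, against 338.8 to 397.9 CPM in P4 WT samples. The 12 differentiating spermatogonium markers summed to 473.5 to 759.0 CPM in P7 cKO samples, against 622.4 CPM in the P7 WT sample, and to 522.9 to 705.3 CPM in P4 cKO samples, against 284.2 to 458.9 CPM in P4 WT samples. That list's median log2 fold change at P4 was -0.25, with 0 of 12 higher and 1 lower, so its sum and its median differ in sign. Stra8, one of them and a gene induced by retinoic acid, did not pass between genotypes (log2 fold change -0.01, adjusted p = 0.994 at P7, and 0.28, adjusted p = 0.534 at P4). Sertoli cell markers summed to 6112 to 6610 CPM in P7 cKO samples, against 6470 CPM in the P7 WT sample, and to 7062 to 7938 CPM in P4 cKO samples, against 3941 to 5589 CPM in P4 WT samples. At P4, 4 of 12 Sertoli (median log2 fold change 0.78), 3 of 10 Leydig (0.87), 3 of 10 macrophage (0.79), 3 of 10 peritubular and stromal (0.46) and 1 of 8 endothelial cell markers (0.18) rose in cKO and none fell. At P7 the medians of these lists were 0.07, 0.20, 0.09, 0.21 and -0.02. Of the 10 recombination genes, 5 fell at P4 and none rose, while Mei4 (0.35) and Tex11 (0.32) had positive log2 fold changes there. The part of these cell type levels in the results was not tested, except by the scaling given below.

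Markers of later germ cells were also read. The 12 late spermatocyte markers summed to 110.4 to 145.1 CPM in P7 cKO samples, against 147.3 CPM in the P7 WT sample, and to 96.0 to 108.0 CPM in P4 cKO samples, against 133.3 to 175.6 CPM in P4 WT samples. Of the 12, 2 rose in P7 cKO testes and 2 fell in P4 cKO testes, with a median log2 fold change of 1.24 at P7 and -1.01 at P4. At P7 the sum was thus below WT while the median was not. The sum follows its most abundant markers, such as Tbpl1, with 1815, 2524 and 2594 reads in P7 cKO and 2462 and 2618 reads in P7 WT libraries. Of all tested genes, 7.26% rose at P7 and 4.13% fell at P4. The 20 spermatid markers summed to 38.8 to 71.1 CPM in P7 cKO samples, against 20.1 CPM in the P7 WT sample, and to 38.2 to 47.7 CPM in P4 cKO samples, against 46.3 to 62.0 CPM in P4 WT samples. Of 19 tested, 7 rose in P7 cKO testes and none passed at P4, with a median log2 fold change of 2.13 at P7 and -0.85 at P4. The protamine genes Prm1 and Prm2, with Tnp2, Smcp, Spz1 and Cabs1, had 0 reads in both P7 WT libraries. In P7 cKO libraries Prm2 had 226, 74 and 84 reads, and Smcp had 70, 24 and 20. At P4, Prm2 had 36, 62 and 44 reads in cKO libraries, against 76 and 38 in WT libraries, and Smcp had 12, 22 and 14, against 64 and 58. The summed spermatid markers were thus above WT in P7 cKO testes, where the recombination genes were below it. At P4, 10 of the 19 had every cKO sample below every WT sample, as 25.6% of all tested genes did. Another 1 (Gapdhs) had every cKO sample above, and 8 overlapped. Their part in the results was not tested.

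**Figure D4:**
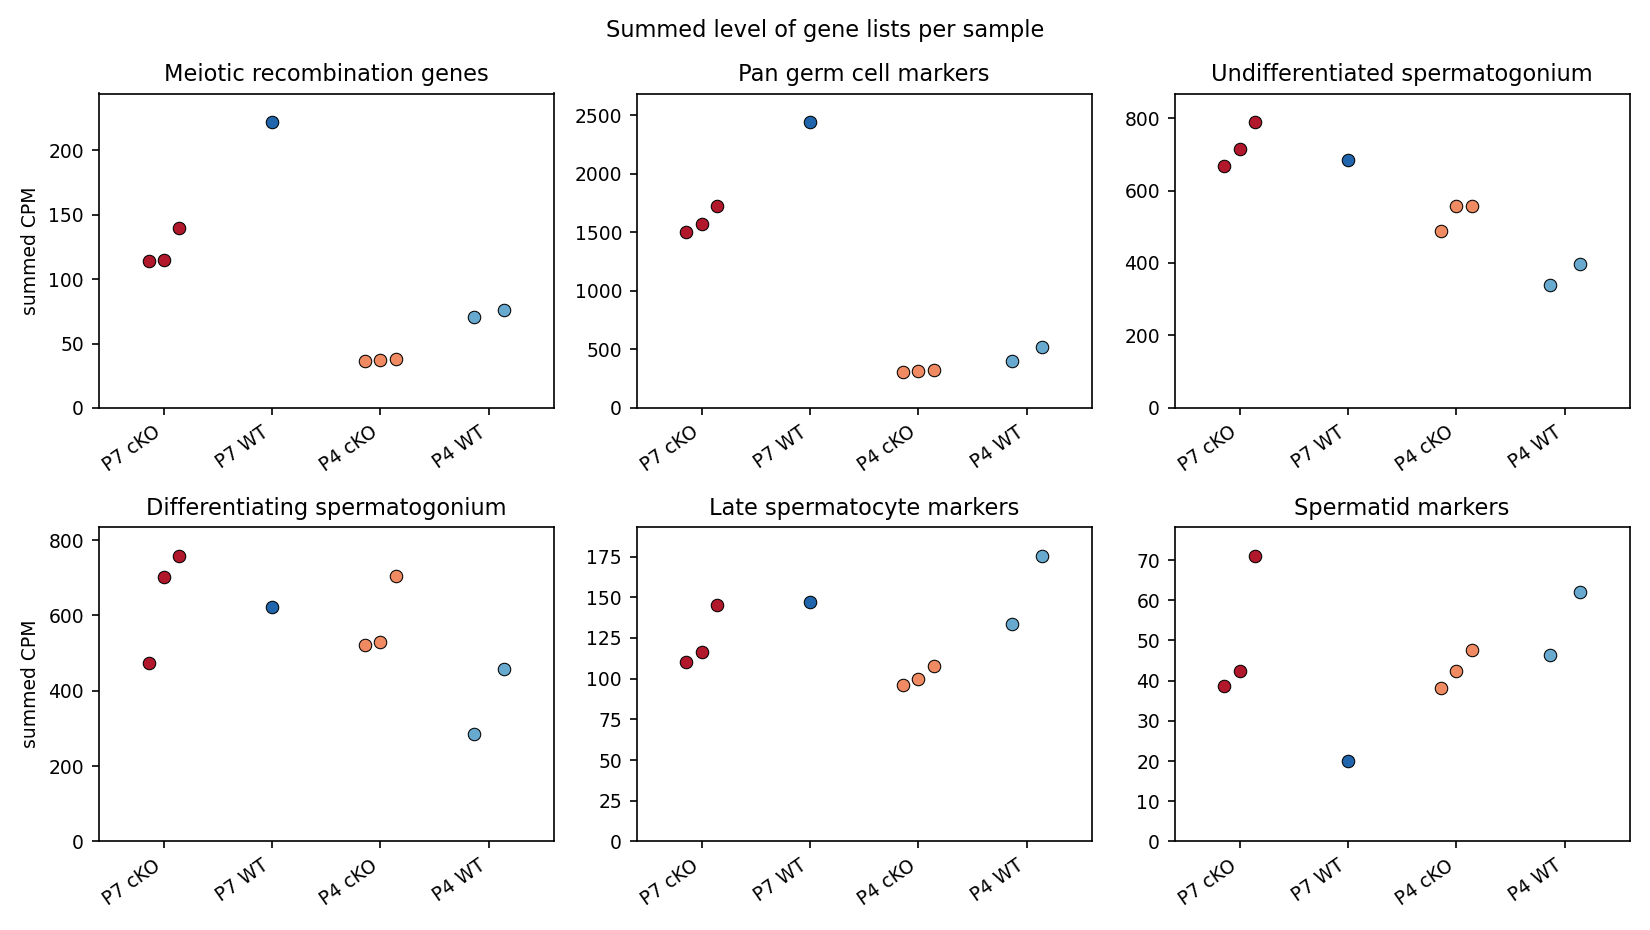
Summed CPM per sample for the 10 recombination genes and 5 lists of germ cell markers, in P7 cKO, P7 WT, P4 cKO and P4 WT. The 10 genes summed to 113.8 to 139.5 CPM in P7 cKO samples, against 222.0 CPM in P7 WT, and to 36.1 to 38.4 CPM in P4 cKO samples, against 70.5 to 76.1 CPM in P4 WT.

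The genotype differences were also read with each library scaled to the summed reads of 15 pan germ cell markers, those outside the recombination and synaptonemal lists. Being a sum, this scale follows the most abundant of these markers. This scale raised the median of all tested genes to 0.57 at P7 and 0.44 at P4. At P4 the same 5 genes fell, among 254 lower and 4690 higher of all tested genes. They fell by 1.96 on the log2 scale for Spata22 (adjusted p = 5.33e-04), 1.93 for Shoc1 (adjusted p = 4.00e-04), 1.56 for Msh4 (adjusted p = 0.00977), 1.51 for Spo11 (adjusted p = 0.00983) and 0.87 for Ankrd31 (adjusted p = 0.0398). At P7 only Spata22 of the 10 fell (-1.71, adjusted p = 0.00853), among 291 lower and 3514 higher of all genes, while Hfm1 and Shoc1 were each at -0.77 (adjusted p = 0.137 and 0.150). Between the stages this scale turned most directions, since the pan germ cell markers themselves rose: relative to them, Ankrd31 alone rose at P7 in cKO (1.03) and Mei4 and Tex11 in WT (2.02 and 1.68), and Dmc1 and Spata22 fell in both genotypes (-1.89 and -1.97 in cKO, -1.94 and -2.22 in WT). Hfm1 also fell in cKO (-1.18), as did Spo11 (-1.96), Meiob (-2.58), Msh4 (-2.08) and Shoc1 (-1.13) in WT. Nearly all genes fell on this scale, 16153 in cKO and 15780 in WT. The median of all tested genes on this scale was -2.29 in cKO and -2.37 in WT.

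A correction was made for exonic length and for GC content, which was below the all-gene median in all 10 genes. It left 4 of them lower at P4, among 303 of all genes, where Ankrd31 had -1.08 (adjusted p = 0.0667). At P7 it left none of the 10 lower and 2 of all genes, at -1.66 for Spata22 (adjusted p = 0.0880), -0.46 for Shoc1 (adjusted p = 0.497) and -0.19 for Hfm1 (adjusted p = 0.842).

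**Figure D5:**
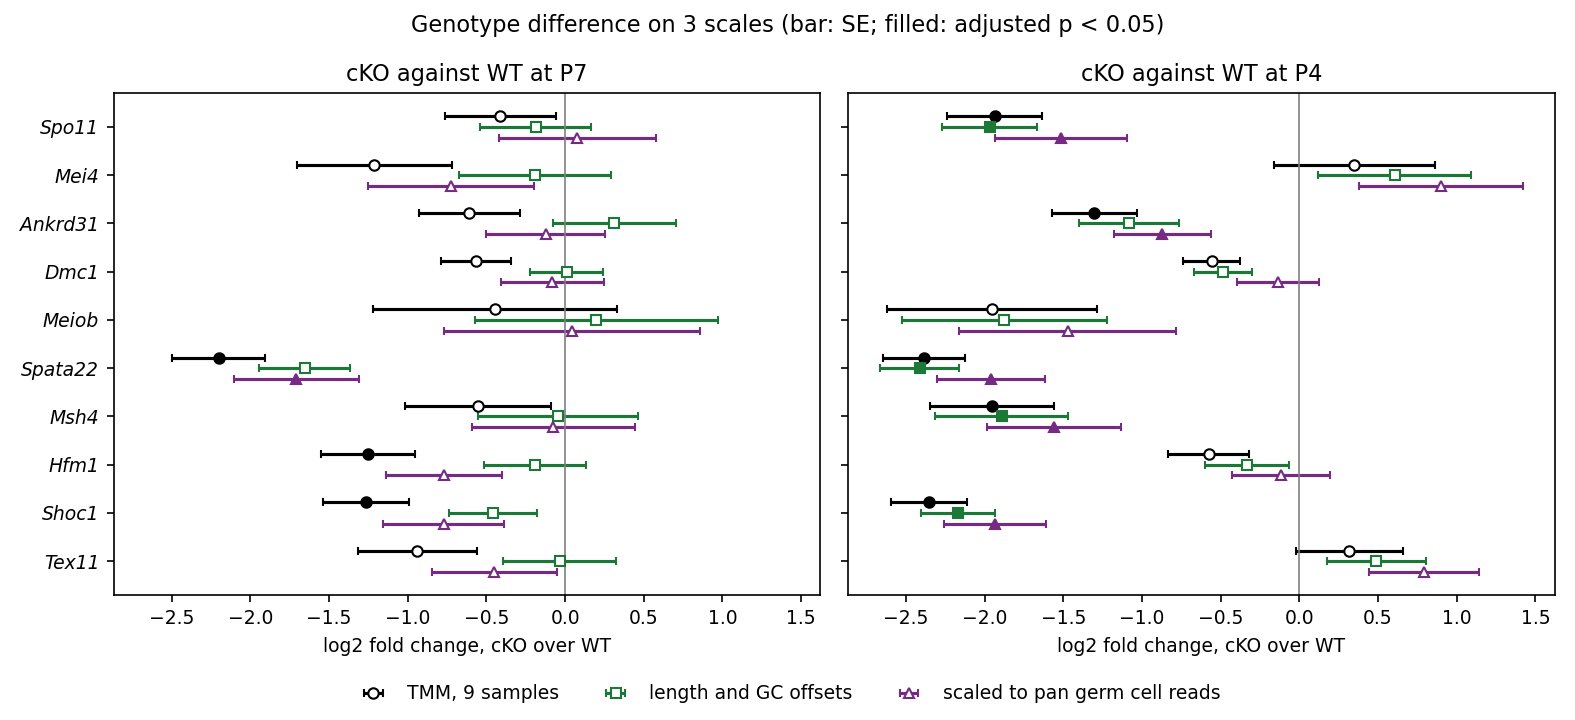
Log2 fold change of cKO over WT at P7 (left) and P4 (right) on 3 scales, with circles for TMM scaling, squares for length and GC offsets and triangles for scaling to pan germ cell reads, bars for the SE and filled symbols for adjusted p under 0.05. At P4 Spata22, Shoc1, Msh4 and Spo11 lay below -1.5 on every scale, whereas at P7 Hfm1 lay at -1.25, -0.19 and -0.77.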

How the data were processed

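RNA-seq of whole testis was analysed from the raw counts per gene that the authors deposited for 10 libraries, with coordinates and exonic lengths on GRCm38 (mm10). Per the submitters' processing notes, reads were handled with STAR 2.7.11a, Trim Galore 0.6.10, FastQC 0.12.1 and MultiQC 1.14, and with SAMtools 1.6, Subread 2.0.6 and featureCounts, in an order not listed. The sources used here give neither the strand setting nor the rule for multi-mapping reads. Of counts under 50, 67.8% to 80.0% were even, which is what counting each mate separately gives, so reads are not independent molecules.

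Samples were grouped by their titles. The P7 WT libraries were summed to 1 sample, whose spread was taken to equal that of the other groups. TMM factors set the scale, filterByExpr kept 18419 of 25239 genes (3425 had no read), and edgeR 4.0.16 under R 4.3.3 fitted 1 mean per group (robust quasi-likelihood test, 9 samples, 5 residual degrees of freedom, common biological coefficient of variation 0.228). The tests were two-sided, with Benjamini-Hochberg adjustment over all genes tested. Each SE was taken from the log2 fold change and the square root of its F statistic. The scripts were tested on simulated data. Of 100 genes with a log2 change of 1, 26 were recovered at P4, 16 at P7, 45 between stages in cKO and 7 in WT. At a log2 change of 2, these numbers were 71, 70, 82 and 63. False calls were 12 of 109, 6 of 92, 12 of 139 and 10 of 80, in the same order. In each comparison of this simulation, false calls were a larger share of the calls than the threshold of 0.05 states. A gene that passed may therefore be a false call more often than that threshold states, and a gene that did not pass may still differ. Sequences are from RefSeq GRCm38.p6.

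The genes and lists were chosen with earlier results of these data known, so they are no independent evidence. One listed recombination gene, Spo16, was not matched. The text names all 10 genes, Lsm7 and Stra8, up to 4 genes with the smallest p of each other meiotic list in each comparison, and the 10 genes most like the mean profile among those averaging at least 1 on the log2 CPM scale. Genes with clone-type names were left out of that ranking. Late marker genes were named after their values were seen. Alternatives were RLE factors, library totals, no filter, a minimum count of 50, DESeq2 1.42.0, limma-voom (limma 3.58.1), 10 separate libraries, the replicate number as a block, the compared groups alone, each sample left out, scaling to pan germ cell markers, and length and GC offsets (smooth terms from mgcv 1.9.3; GC known for 98.0% of genes and all 10 genes of interest).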

Additional observations from a re-analysis of the deposited data

How the results depend on the processing

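The number of the 10 genes called and of all genes called depended on the fit. At P7 (main counts 3 and 3129), length and GC offsets gave 0 and 2, germ cell scaling 1 of the 10, limma-voom 5, 10 separate libraries 6 and 6905, and the compared groups alone 0 and 0. At P4 (5 and 1651), all genes called were 605 with the offsets, 4944 with germ cell scaling, 3020 with DESeq2, 2895 with 10 separate libraries and 3229 with the compared groups alone. Between stages, germ cell scaling gave 4 and 16248 in cKO (main 7 and 5372) and 8 and 15839 in WT (main 5 and 4016), the offsets gave 3 of the 10 in WT, and 10 separate libraries 7279 genes in WT. For the interaction (0 and 0), library totals gave 3 genes, the offsets 1, germ cell scaling 319, no filter 431, DESeq2 1720, and 10 separate libraries 2 of the 10 and 3105 genes. It has no fit with the compared groups alone, and Meiob was not tested at a minimum count of 50. Correlations of deviations were -0.16 to 0.31 over 13 same-numbered pairs, against -0.31 to 0.25 over 24 differently numbered pairs. Deviations were taken from group means and mirror each other in groups of 2 libraries. These ranges therefore cannot show whether the numbers mark pairs. With 10 libraries and the replicate block, 6 of the 10 and 7438 genes were called at P7, 2732 genes at P4, 7814 between stages in WT, and 3 of the 10 and 4311 genes for the interaction. Leaving out 1 sample at a time gave 1 to 6 of the 10 and 961 to 4921 genes at P7, 0 to 7 and 2 to 4157 at P4, 7 to 7 and 3520 to 5569 between stages in cKO, 4 to 5 and 1187 to 6315 in WT, and 0 to 1 and 0 to 1455 for the interaction.

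Scaling also moved the direction of the calls over all genes. The lower share was 57.2% at P7, 46.0% at P4 and 50.4% between stages in cKO, but 44.6%, 74.5% and 31.8% with library totals, which shifted the median log2 value of all genes to 0.19, -0.16 and 0.18. With germ cell scaling it was 7.6% at P7, 5.1% at P4, 99.4% between stages in cKO and 99.6% in WT.

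The sign changed in these cases, whose cause was not tested. With length and GC offsets, Ankrd31 (0.31), Dmc1 (0.01) and Meiob (0.20) turned at P7, Dmc1 (-0.049), Spata22 (-0.37) and Msh4 (-0.052) between stages in WT, and Hfm1 (0.15) in the interaction. With germ cell scaling, Spo11 (0.077) and Meiob (0.044) turned at P7, Spo11 (-0.36), Dmc1 (-1.89), Meiob (-1.07), Spata22 (-1.97), Msh4 (-0.60) and Hfm1 (-1.18) between stages in cKO, and Spo11 (-1.96), Dmc1 (-1.94), Spata22 (-2.22), Msh4 (-2.08), Hfm1 (-0.53) and Shoc1 (-1.13) in WT. The interaction of Dmc1 (-0.01) turned to 0.016 with RLE factors, 0.26 with library totals, 0.50 with the offsets, 0.057 with germ cell scaling, 0.070 at a minimum count of 50, 0.016 with DESeq2, 0.013 with 10 libraries and 0.002 with the replicate block, and ran from -0.12 to 0.10 over left-out samples. Over left-out samples, Tex11 ran from -0.082 to 0.61 and Mei4 from -0.32 to 1.72 at P4, and Meiob from -0.61 to 0.067 between stages in WT. Of 21 alternatives, Spata22 passed in 19 at P7 and 20 at P4, Shoc1 in 17 and 20, Hfm1 in 17 at P7, and Spo11, Msh4 and Ankrd31 in 18, 17 and 16 at P4. These alternatives share most of their samples, and leaving out a sample of the other stage changes only the shared spread and scale. P7 WT entered every P7 fit as 1 sample or as libraries differing by little more than sampling noise. The tallies are therefore not independent support. Depth limits Meiob and, at P4, Mei4, which rest on few reads. Spo11 had 25, 22 and 23 reads in P4 cKO libraries and Msh4 had 27, 37 and 45, so depth limits their P4 values as well.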

Other observations

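The P7 cKO samples were also set beside the P4 WT samples, a description with no test. For 5 of the 10 genes the ranges overlapped: Spo11 (2.49 to 2.86 CPM in P7 cKO and 2.48 to 2.85 CPM in P4 WT), Shoc1 (7.69 to 10.7 and 8.96 to 10.2 CPM), Msh4 (2.33 to 5.29 and 3.33 to 5.03 CPM), Dmc1 (22.4 to 28.7 and 25.5 to 30.0 CPM) and Meiob (0.201 to 1.09 and 0.794 to 1.24 CPM). For the other 5 they were apart. Ankrd31, Tex11, Mei4 and Hfm1 were above P4 WT in P7 cKO samples, and Spata22 was below it, at 1.83 to 2.43 CPM against 8.10 to 9.07 CPM.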
